A study of Mus musculus with 18 samples.

Results

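A set of 9 genes of the 2-cell stage of the mouse embryo was followed through RNA sequencing of single embryos. The members were Zscan4c (NM_001013765), Zscan4d (NM_001100186), Zscan4f (NM_001110316), Tcstv1 (NM_018756), Tcstv3 (NM_153523), Zfp352 (NM_153102), Eif1a (NM_010120), Dppa2 (NM_028615) and Dppa4 (NM_028610). Each was taken by its RefSeq transcript identifier, and all 9 identifiers were found among the 26823 transcripts listed for every embryo. The sequencing covered 18 embryos of strain background 129SVE, which were collected at the 2-cell stage. Of these, 9 had wild-type fathers (WT, fathers 1, 2 and 3) and 9 had Parg(110)-/- fathers (KO, fathers 6, 7 and 8). Father numbers were inferred from the first number in each sample title, which gives 3 embryos for each father. Mothers were wild-type in both groups, so that an embryo of a KO father carries 1 mutated copy of Parg, the gene for the enzyme that degrades poly(ADP-ribose). The KO fathers lack the large isoform of that enzyme, and the mutation is not restricted to sperm. Ages of the animals are not given in the sources used here.

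In the mouse, the embryo's own genome is switched on in a major wave at the 2-cell stage, while messages stored in the egg are degraded. A set of genes and repeats is transcribed strongly during this wave and is then shut off again. Zscan4 genes are a tandem family of zinc finger and SCAN domain genes within the set, known for their part in telomere maintenance and for their sporadic expression in embryonic stem cells. Tcstv1 and Tcstv3 encode small proteins of the same stage that also act on telomere length. Zfp352 encodes a zinc finger protein found at the same stage. Eif1a belongs to the genes of translation initiation factor eIF1A and is a classical marker of genome activation. Dppa2 and Dppa4 encode a pair of SAP domain proteins that bind DNA together and are already present in the egg. They act upstream of Dux, the transcription factor that turns on much of the 2-cell set.

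Deposited counts summed to between 2852858 and 13355161 per WT embryo and between 3560501 and 12497060 per KO embryo. A single count was thus worth 0.075 to 0.351 CPM (counts divided by the total of the embryo, per 1000000 counts). No replicate material was sequenced from the same embryo, and intervals and limits given for single counts cover counting error only. Embryos with the same father share that father, and p-values over embryos treat them as independent. The egg and early embryo list (Gdf9, Zp2, Nlrp5, Npm2 and others) was counted in full, with 13 of 13 genes passing the filter. Between KO and WT embryos 0 of the list were called, against 0% of all transcripts tested. Of 9 genes of cumulus and granulosa cells, 6 had 0 counts in every embryo, among them Fshr, Foxl2 and Inha. The summed level of that list ranged from 3.86 to 40.6 CPM in WT embryos and from 5.69 to 20.5 CPM in KO embryos, mostly from Amhr2 and Cyp19a1. Of 7 sperm and spermatid genes, 5 had 0 counts throughout, including Prm1 and Tnp1, and the list's sum stayed at or below 3.52 CPM in every embryo. Blastocyst lineage genes were also low. Sox17 had 0 counts and Nanog did not exceed 1.04 CPM, whereas Gata4 ranged from 13 to 61 CPM.

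The Zscan4 genes lie in the same cluster and differ little in sequence, which decides what a uniquely mapped read can show about them. In GENCODE vM1 on mm9, the build used for mapping, Zscan4c lies at chr7:11591071-11595896 on the plus strand, Zscan4d at chr7:11746992-11751497 on the minus strand and Zscan4f at chr7:11983264-11988090 on the plus strand. Each has 4 exons. Their coding sequences are 1521 bases long and were compared base by base. Zscan4c and Zscan4f differ at 6 positions and are 99.6% identical, and Zscan4d differs from either at 35 positions (97.7% identical). The stretch of 100 coding bases that differs most among these genes (coding positions 666 to 765, within exon 4) is shown. It is among the places where reads can tell Zscan4d from Zscan4c and Zscan4f. Other Zscan4 copies were not compared there. Capitals mark the 8 positions at which the sequences differ. The stretch of Zscan4c, at chr7:11594490-11594589, is the same as that of Zscan4f, at chr7:11986683-11986782, and that of Zscan4d is at chr7:11748026-11748125.
Zscan4c: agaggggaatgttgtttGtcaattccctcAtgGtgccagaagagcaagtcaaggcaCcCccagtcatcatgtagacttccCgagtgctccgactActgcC
Zscan4d: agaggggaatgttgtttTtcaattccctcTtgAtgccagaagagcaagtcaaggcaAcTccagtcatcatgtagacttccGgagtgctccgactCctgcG
Zscan4f: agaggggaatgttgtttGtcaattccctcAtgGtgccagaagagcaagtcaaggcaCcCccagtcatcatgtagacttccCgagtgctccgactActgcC

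The consequence for counting was measured by cutting the exons of each gene into all windows of 50 bases and asking which windows occur once in mm9. Of the exon windows of Zscan4f, 2.4% occurred once (50 of 2081). For Zscan4c the share was 15.5% (327 of 2105), and for Zscan4d it was 50.5% (907 of 1796). With windows of 100 bases the shares were 5.32%, 29.6% and 72.5%. By contrast, 91% of the 50-base windows of Zfp352 and 95% of those of Eif1a occurred once. Dppa2 reached 51.8% and Dppa4 51%, and both exceeded 79% with 100-base windows (79.3% and 84.3%). The read length is not given in the sources used here, and windows across exon junctions were not scored. Neither Tcstv1 nor Tcstv3 has a gene of that symbol in GENCODE vM1. RefSeq places both on chromosome 13 at loci that do not overlap, and the uniqueness of their sequence was not analysed here.

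**Figure D1:**
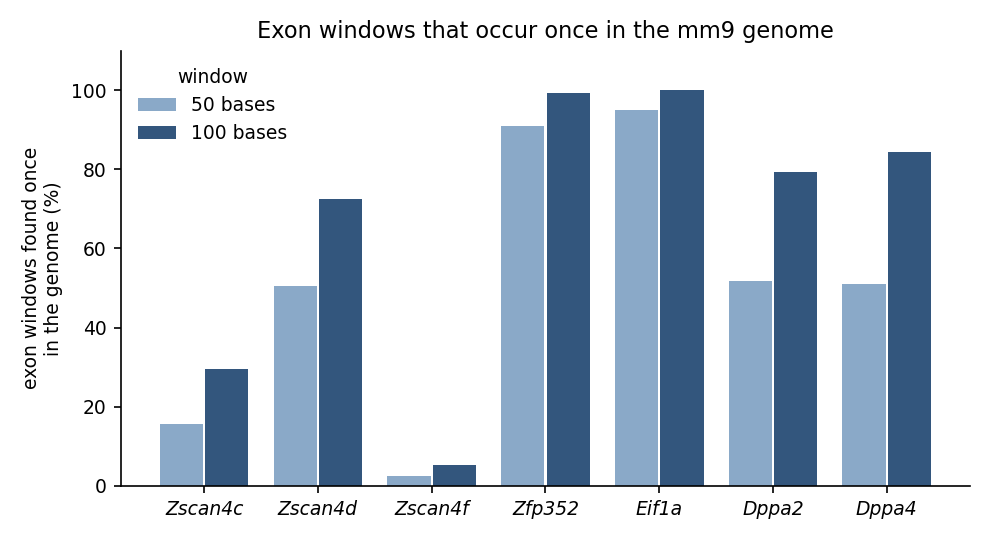
Bars give, for 7 genes, the percentage of exon windows of 50 bases (light) and 100 bases (dark) that occur once in the mm9 genome. Zscan4f has the lowest share at both lengths (2.4% and 5.32%), and Eif1a the highest (95% and 100%).

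The promoters of the Zscan4 genes are shown as well, because their likeness bears on whether the 3 genes should be read as separate units. Stretches of 100 bases upstream of the RefSeq gene starts on GRCm38.p6, another build than that of the counts, were aligned on their TATAAA motif, which is in capitals. The stretch of Zscan4c is chr7:11005621-11005720 (plus strand), that of Zscan4d chr7:11166184-11166283 (minus strand) and that of Zscan4f chr7:11397814-11397913 (plus strand).
Zscan4c: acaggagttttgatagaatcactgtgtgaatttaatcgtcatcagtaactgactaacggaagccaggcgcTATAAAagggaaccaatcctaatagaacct
Zscan4d: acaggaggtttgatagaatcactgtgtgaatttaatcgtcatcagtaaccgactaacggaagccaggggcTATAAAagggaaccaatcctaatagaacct
Zscan4f: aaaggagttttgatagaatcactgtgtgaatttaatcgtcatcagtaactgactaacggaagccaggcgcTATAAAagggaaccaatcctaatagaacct
TATAAA (searched on both strands) was present in 13.6% of the 32851 mouse promoter windows of 300 bases, and it was absent from the window of Zfp352. Promoter windows of the other members were not analysed here. The presence of these letters describes the sequence and was not tied to any binding measurement.

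Zscan4d was the most abundant of the 3 Zscan4 members by mean CPM. In WT embryos Zscan4d ranged from 0 CPM (embryos 2-3 and 3-1) through a median of 2.83 to 30.4 CPM (embryo 3-2), with a mean of 5.94 ± 9.74 CPM (SD, n = 9). In KO embryos it ranged from 0.174 CPM (8-2) through a median of 1.39 to 13.7 CPM (6-3), with a mean of 4.77 ± 5.22 CPM (SD, n = 9). The KO range lay within the WT range. The zero in embryo 2-3 allows up to 1.05 CPM and that in embryo 3-1 up to 0.521 CPM. Zscan4c had a mean of 3.17 ± 4.46 CPM in WT embryos and 2.39 ± 3.55 CPM in KO embryos (SD, n = 9 each). Its WT values ran from 0 (2-2) through a median of 1.87 to 14.8 CPM (1-3), and its KO values from 0 (6-1, 8-1 and 8-3) through a median of 0.349 to 9.79 CPM (7-3). Zscan4f remained lowest, with a mean of 0.385 ± 0.388 CPM in WT and 1.39 ± 2.05 CPM in KO embryos (SD, n = 9 each). It had 0 counts in 3 WT embryos and in 4 KO embryos, the latter including all 3 embryos of father 8. Its highest level in WT embryos was 0.968 CPM (1-1, 11 counts), and the highest in KO embryos was 5.78 CPM (6-3, 63 counts).

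The makeup of the uniquely mapped Zscan4 counts differed from embryo to embryo. Because the 3 genes differ in how much of their sequence is unique, these shares are not shares of Zscan4 transcripts. In embryo 1-3, 97.2% of the counts of the 3 genes belonged to Zscan4c, whereas in embryo 3-2 Zscan4d supplied 92%. The share of Zscan4f ranged from 0% to 36.4% (embryo 3-1, with 11 counts over the 3 genes) in WT embryos and from 0% to 46.7% (embryo 7-2, with 30 counts) in KO embryos. The summed level was between 1.91 and 33.1 CPM in WT embryos and between 0.523 and 22.1 CPM in KO embryos. Sums of 3 counts in embryos 8-1 and 8-2 leave their makeup undetermined. Those of 6 counts in embryo 2-3 and 11 counts in embryos 3-1 and 6-1 leave it poorly determined. The part of amplification in these shares was not tested. Zscan4a (NR_033707), annotated in RefSeq as a transcribed pseudogene of the same cluster, had 9.68 ± 15.5 CPM in WT and 4.65 ± 5.59 CPM in KO embryos (SD, n = 9 each).

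**Figure D2:**
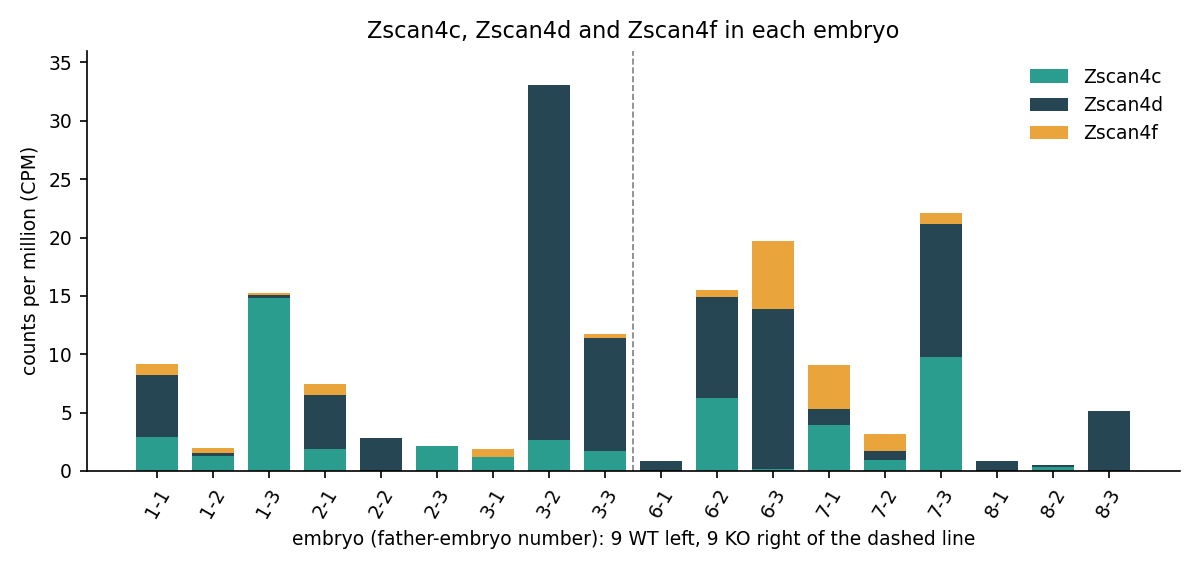
Stacked bars give CPM of Zscan4c (green), Zscan4d (dark blue) and Zscan4f (orange) in each of the 18 embryos, WT on the left of the dashed line and KO on the right, with no error bars since each bar is 1 library. Embryo 3-2 reaches 33.1 CPM, mostly from Zscan4d, and embryo 1-3 reaches 15.3 CPM, mostly from Zscan4c.

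Both Tcstv genes were counted in every embryo with at least 10 counts. Tcstv1 ranged from 1.59 CPM (1-3) through 14.9 to 47.9 CPM (2-2) in WT embryos and from 5.76 CPM (6-1) through 21.4 to 45.4 CPM (7-1) in KO embryos, given as lowest, median and highest. The means were 18.5 ± 15 CPM in WT and 24.5 ± 11.9 CPM in KO embryos (SD, n = 9 each). Tcstv3 ranged from 6.92 CPM (1-3) through 16.2 to 61 CPM (2-1) in WT and from 8.72 CPM (6-1) through 33.1 to 102.4 CPM (7-1) in KO embryos. Its means were 25.8 ± 21.1 CPM and 37 ± 27.9 CPM (SD, n = 9 each). The same embryo was lowest for both genes within each group, and embryo 7-1 was the highest KO embryo for both. Zfp352, at chr4:89885511-89892393 on the plus strand of mm9, was more uneven, from 0 CPM (2-3) through 7.64 to 17.6 CPM (3-3) in WT embryos and from 0 CPM (8-2) through 2.46 to 25.7 CPM (7-1) in KO embryos. Its means were 6.86 ± 6.7 CPM and 6.06 ± 9.07 CPM (SD, n = 9 each).

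Eif1a, which encodes a factor that helps the small ribosomal subunit find the start codon, ranged from 0 CPM (2-3) through 14.5 to 64.1 CPM (3-1) in WT embryos. In KO embryos the range was 0.697 CPM (8-2) through 6.52 to 56.7 CPM (6-2). The means were 19.2 ± 21.3 CPM and 16.2 ± 18.8 CPM (SD, n = 9 each). All 3 embryos of WT father 2 were at or below 3.69 CPM, while all 3 embryos of WT father 3 were at or above 14.5 CPM. Dppa4 and Dppa2 are neighbours on the plus strand of mm9, at chr16:48283848-48294405 and chr16:48310590-48319836. Dppa2 was the steadiest member, with 165.0 ± 60.8 CPM in WT and 174.6 ± 68.8 CPM in KO embryos (SD, n = 9 each) and a range over both groups of 62.8 CPM (7-1) to 279.2 CPM (3-3). Its coefficient of variation was 36.9% in WT and 39.4% in KO embryos, against 164% and 109% for Zscan4d. Spread between embryos was larger for transcripts of lower level. The biological coefficient of variation that edgeR fitted for transcripts of like level was 0.594 for Dppa2 and 1.61 for Zscan4d. The estimates of the 2 genes themselves, which edgeR draws toward that fit, were 0.477 and 1.52. Dppa4 had 200.0 ± 114.8 CPM in WT and 150.4 ± 111.4 CPM in KO embryos (SD, n = 9 each), from 42.1 CPM (6-1) to 380.2 CPM (3-1). Dppa4 also has a second RefSeq isoform with nearly the same counts, and the value here is that of NM_028610 alone.

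**Figure D3:**
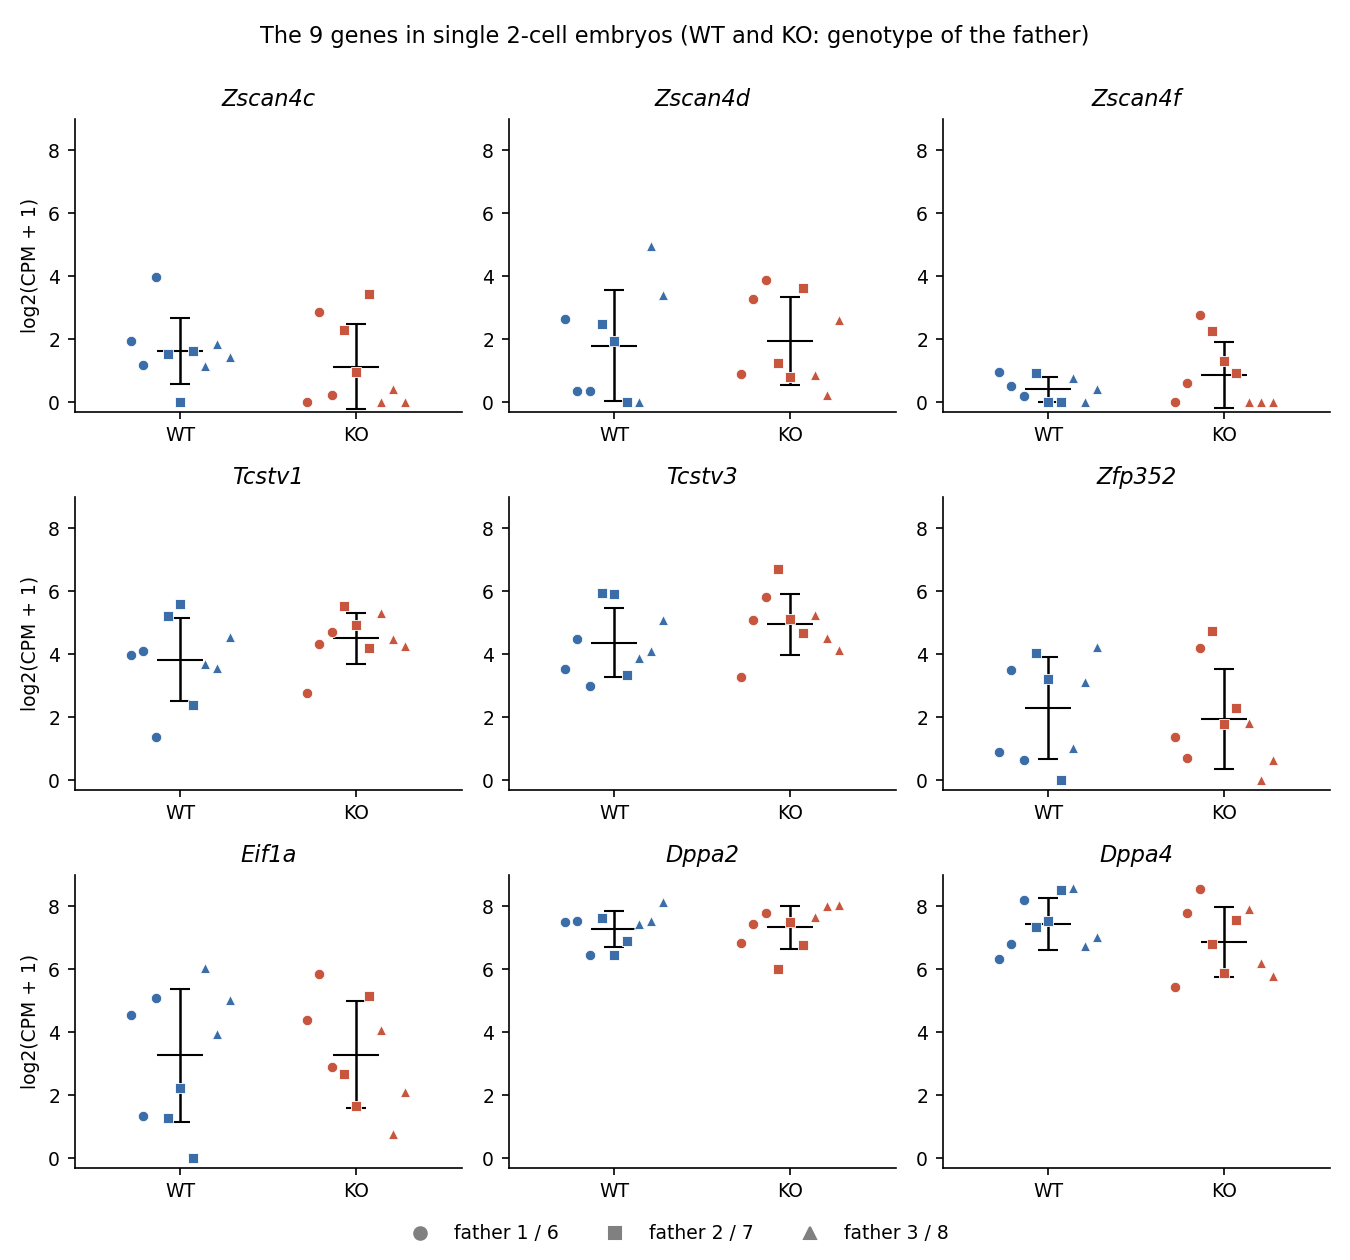
Each panel plots log2(CPM + 1) of 1 gene for the 9 WT (blue) and 9 KO embryos (red), with 1 point per embryo, marker shapes for fathers, and black bars for the mean and SD of the 9. Dppa2 and Dppa4 lie highest, the Zscan4 genes lowest, and the WT and KO points overlap in all 9 panels.

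Since CPM do not allow for the length of a gene, levels of the 7 members with a GENCODE model were also set side by side per kilobase of exon. In WT embryos Dppa4 had 130 ± 74.9 and Dppa2 84.7 ± 31.2 CPM per kilobase (SD, n = 9 each). Eif1a followed with 6.67 ± 7.41, Zfp352 with 3.01 ± 2.94, Zscan4d with 2.98 ± 4.89, Zscan4c with 1.38 ± 1.94 and Zscan4f with 0.169 ± 0.17 CPM per kilobase. Neighbours in this order differed by less than the larger of their 2 SDs, except Dppa2 and Eif1a. The SD describes the spread between embryos, and differences between genes were not tested. When the length was replaced by the number of 50-base windows that occur once in mm9, the 3 Zscan4 genes came to 9.69 ± 13.6 (Zscan4c), 6.54 ± 10.7 (Zscan4d) and 7.69 ± 7.76 (Zscan4f) CPM per 1000 such windows in WT embryos. The order of the 3 copies by CPM was not kept on this scale, and differences between the copies were not tested. In KO embryos the corresponding values were 7.31 ± 10.8, 5.26 ± 5.75 and 27.7 ± 41. The value of Zscan4f rests on 50 windows and on 34 counts in all 9 WT embryos and 105 in the 9 KO embryos. Whether some of these counts came from other Zscan4 copies, or depended on strain variants, was not tested.

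Whether paternal loss of Parg(110) altered these genes in the offspring was asked by comparing the 9 KO with the 9 WT embryos over 15333 transcripts, with the quasi-likelihood test of edgeR at an adjusted p of 0.1. None of the 9 members passed, since 0 of 9 were called, against a background of 0% (0 of 15333) over all transcripts tested, and 0 of 9 reached an unadjusted p below 0.05, against 5.8% (889) of all transcripts. DESeq2 called 0 members as well. All 9 passed the filter, which asked for 10 or more counts in 3 or more embryos. Estimates were above 0 for 4 members and below 0 for 5, with a median log2 fold change of -0.17 for the members and -0.02 for all transcripts. For the Zscan4 genes, the log2 fold changes of KO over WT were -0.42 ± 1.27 for Zscan4c, -0.29 ± 1.11 for Zscan4d and 1.80 ± 1.40 for Zscan4f (SE, edgeR adjusted p = 1, 1 and 0.949). Their 95% intervals spanned -3.03 to 2.19, -2.58 to 2.00 and -1.08 to 4.68, so that changes of several fold in either direction were not detectable for Zscan4c and Zscan4d at this spread.

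Tcstv1 and Tcstv3 had log2 fold changes of 0.39 ± 0.55 and 0.52 ± 0.52 (SE, edgeR adjusted p = 0.977 and 0.969), with 95% intervals of -0.75 to 1.53 and -0.55 to 1.58. Zfp352 had -0.17 ± 1.05 and Eif1a -0.24 ± 0.87 (SE, edgeR adjusted p = 1 for both), with intervals of -2.33 to 1.99 and -2.04 to 1.57. The narrowest bounds were those of Dppa2 and Dppa4. Dppa2 gave 0.10 ± 0.29 (interval -0.49 to 0.69; edgeR adjusted p = 0.998), and Dppa4 gave -0.42 ± 0.41 (interval -1.26 to 0.42; edgeR adjusted p = 0.968). An exact two-sided permutation of the 6 fathers on their mean log2(CPM + 1), whose smallest possible p is 0.1, gave p from 0.2 (Dppa4) to 1 (Dppa2 and Eif1a).

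**Figure D4:**
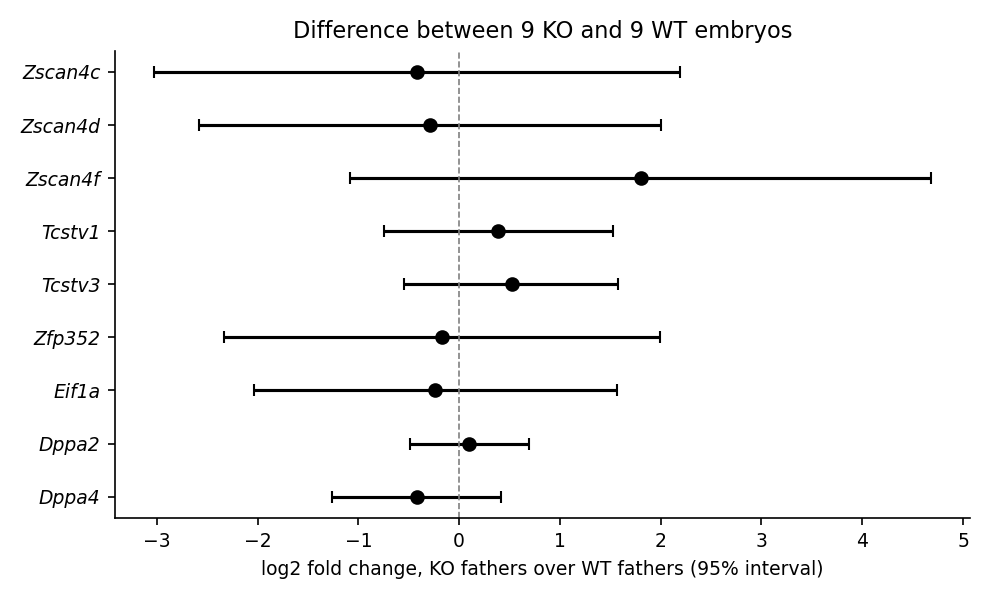
Points give the log2 fold change of 9 KO over 9 WT embryos for each gene, and horizontal bars its 95% interval from edgeR. All 9 intervals include 0, and the widest is that of Zscan4f (-1.08 to 4.68).

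Each KO embryo was also set against the 9 WT embryos, as was done for single embryos in the study, after removing transcripts that reached 10 counts in no embryo of the fit. The members gave 81 tests, of which 0 were called by edgeR or by DESeq2, with edgeR adjusted p-values of 0.591 to 0.994. An unadjusted p below 0.05 was reached in 2 of the 81, against 5.72% of all tests. Over all transcripts the share called was 0.027% for embryo 6-1, 0.0108% for 6-2, 0.0162% for 6-3, 0.157% for 7-1, 0.157% for 7-2, 0.103% for 7-3, 0% for 8-1, 0.0545% for 8-2 and 0% for 8-3. The spread in these fits comes from the WT embryos alone. Of the 2, Tcstv3 in embryo 7-1 had 102.4 CPM, for a log2 fold change of 1.98 (edgeR adjusted p = 0.679). Dppa4 in embryo 6-1 had 42.1 CPM, for a log2 fold change of -2.22 (edgeR adjusted p = 0.647).

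Differences between fathers of 1 genotype were tested next, since embryos were nested within fathers as inferred from the titles. Deviations from the group mean had a median correlation of -0.104 between embryos of the same father. Between embryos of different fathers of a group it was -0.136. Among WT fathers 8 members were tested, since Zscan4f was below the filter there. Of these, 0 were called by edgeR or DESeq2, against 0% of 13315 transcripts in edgeR, and 1 of 8 had an unadjusted p below 0.05, against 5.33%. This was Eif1a (F = 4.75, edgeR adjusted p = 0.894), with means of 19.1 ± 16.2 CPM for father 1, 1.7 ± 1.86 CPM for father 2 and 36.8 ± 25.2 CPM for father 3 (SD, n = 3 each). Among KO fathers all 9 members were tested. Again 0 were called by edgeR or DESeq2, against 0% of 12501 transcripts in edgeR, and 0 of 9 had an unadjusted p below 0.05, against 4.71%. Eif1a had means of 27.8 ± 26 CPM for father 6, 14 ± 17.9 CPM for father 7 and 6.68 ± 8.19 CPM for father 8 (SD, n = 3 each, F = 1.1, edgeR adjusted p = 1). The 3 embryos of father 8 had 0 to 0.349 CPM of Zscan4c, 0 counts of Zscan4f and 0 to 2.53 CPM of Zfp352. The other members were not low throughout in the same embryos. Zscan4d was 0.174 to 5.15 CPM, Eif1a 0.697 to 16, Tcstv1 18.4 to 38.5 and Tcstv3 16.7 to 36.8 CPM. Dppa2 was 199.1 to 262.1 CPM and Dppa4 54.2 to 239.9 CPM. Totals of these 3 embryos were 3560501, 5737818 and 7191377 counts, and the part of depth in the low values was not tested.

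Whether the members rise and fall together from embryo to embryo was examined over log2(CPM + 1) of the 18 embryos. Zscan4d had the highest mean CPM of the Zscan4 members in both groups, a rank not kept per window that occurs once in mm9. Zscan4d was correlated with the 8 other members by a permutation test with adjustment over the 8 pairs. No pair passed. The highest was Zfp352 (Pearson r = 0.42, permutation p = 0.0822, adjusted 0.497; Spearman rho = 0.45, permutation p = 0.0629, adjusted 0.503), with r = 0.30 without the 2 embryos farthest from the median of Zscan4d. Within WT embryos r was 0.56, within KO embryos 0.26, and after centring within fathers 0.38. With Zscan4c and Zscan4f, the genes of the same cluster, r was 0.15 (permutation p = 0.54, adjusted 0.617; rho = 0.18, permutation p = 0.468, adjusted 0.535) and 0.23 (permutation p = 0.373, adjusted 0.497; rho = 0.25, permutation p = 0.314, adjusted 0.535). Without the 2 farthest embryos these were 0.24 and 0.17. Dppa4 was opposed in the 2 groups, with r = -0.71 in WT and 0.61 in KO embryos, and its value over all 18 embryos was -0.03 (permutation p = 0.891, adjusted 0.891; rho = -0.10, permutation p = 0.698, adjusted 0.698; r = -0.13 without the 2 farthest embryos). Whether the 2 groups differ in this relation was not tested.

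All 36 pairs of members were then computed, a family chosen after these values had been seen. Of these, 2 pairs passed at an adjusted p of 0.1. Tcstv1 and Tcstv3 were the closest, with r = 0.89 and rho = 0.96 (permutation p = 1e-05 for both, the smallest that 100000 permutations can give; adjusted 0.00036 for both). The value remained 0.89 without the 2 embryos farthest from the median of Tcstv1, and it was 0.91 within WT embryos, 0.87 within KO embryos and 0.89 after centring within fathers. Tcstv3 and Zfp352 followed with r = 0.73 (permutation p = 0.00072, adjusted 0.013) and rho = 0.68 (permutation p = 0.00226, adjusted 0.0407). That relation gave 0.64 without the 2 embryos farthest from the median of Tcstv3, 0.84 within WT embryos, 0.75 within KO embryos and 0.84 after centring within fathers. In the 9 KO embryos alone it no longer passed (permutation test, adjusted p = 0.188). How many of all transcripts follow Tcstv1 or Tcstv3 as closely was not computed. Of the 36 pairs, 22 had r above 0 over the 18 embryos, and r differed in sign between WT and KO embryos in 21.

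**Figure D5:**
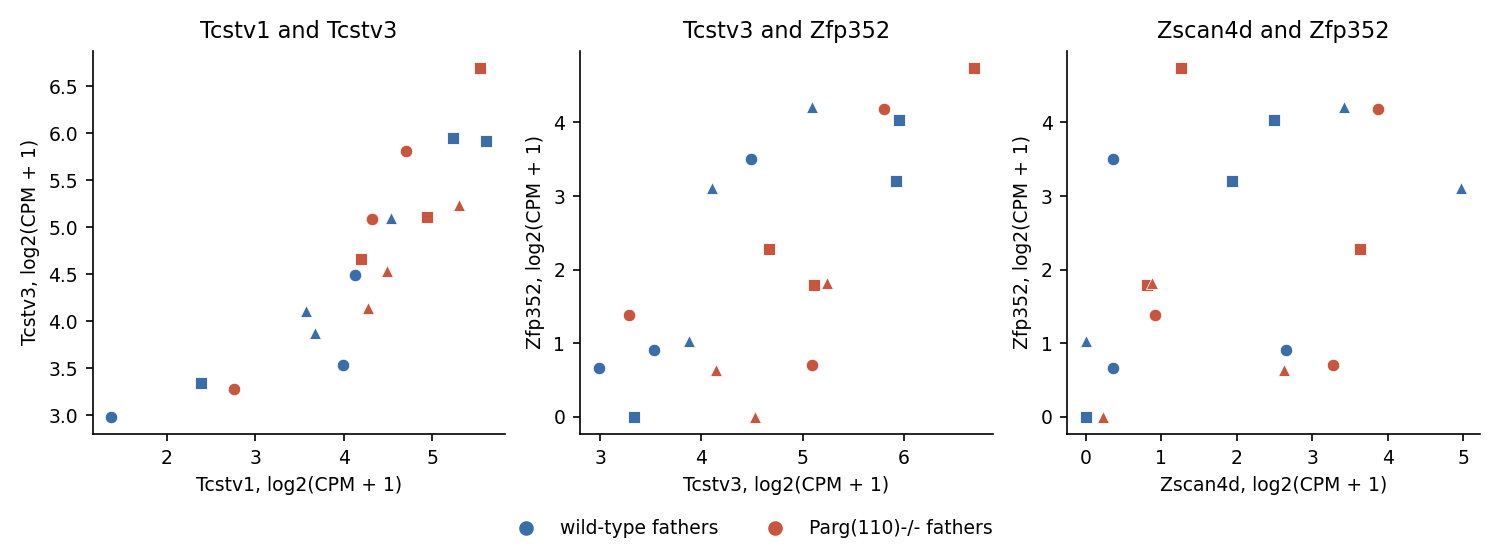
Each point is 1 embryo (blue, WT fathers; red, KO fathers; circles for fathers 1 and 6, squares for 2 and 7, triangles for 3 and 8), with log2(CPM + 1) of 1 gene on each axis. Tcstv1 and Tcstv3 fall along a line (r = 0.89), Tcstv3 and Zfp352 more loosely (r = 0.73), and Zscan4d and Zfp352 are scattered (r = 0.42).

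The transcripts whose pattern was most like that of Zscan4d over the 18 embryos were Cdk18 (rho = 0.83), Psme4 (0.81), Itga4 (0.79), Slc24a2 (0.78) and Rdh14 (0.76), chosen as the 5 highest of 15332 and given as a description. Psme4, which encodes a proteasome activator, was abundant, with a median of 229.8 CPM. The others were sparse, with medians of 0 to 1.01 CPM. In the same ranking Zfp352 stood at position 729 and Zscan4f at position 3127.

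Other genes of the 2-cell set were read from a list of 50, of which 44 were found and 40 tested between KO and WT embryos. Again 0 were called, against 0% of all transcripts tested, and the median log2 fold change of the list was 0.03. An unadjusted edgeR p below 0.05 was reached by 2 of the 40, against 5.8% of all transcripts tested, and both were lower in KO embryos. These were Gm13119 (now Pramel31), with 1.01 ± 1.09 CPM in WT and 0.119 ± 0.269 CPM in KO embryos (SD, n = 9 each, edgeR adjusted p = 0.839), and Spz1. Spz1, which encodes a helix-loop-helix factor first described in testis, had 70.6 ± 74.2 CPM in WT and 27.7 ± 21.3 CPM in KO embryos (SD, n = 9 each), for a log2 fold change of -1.35 ± 0.6 (SE, edgeR adjusted p = 0.805). By mean CPM, without regard to length, the highest in WT embryos were Sp110 (392.9 ± 190.3 CPM in WT, 294.6 ± 107.1 CPM in KO) and Trim43b (192.4 ± 55.2 CPM and 198.4 ± 56.8 CPM). In KO embryos Nelfa (218.7 ± 137.0 CPM) and Obox5 (213.7 ± 118.2 CPM) had higher means than Trim43b.

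Regulators of the 2-cell programme, such as chromatin assembly and histone methylation factors, were counted for 22 of 23 names and tested for all 22. The name not found was Duxf3, the symbol used for Dux, so Dux itself was not assessed. None was called, against 0% of all transcripts tested, and the median log2 fold change was -0.15. An unadjusted edgeR p below 0.05 was reached by 1 of the 22, against 5.8% of all transcripts tested. Chaf1b, a subunit of chromatin assembly factor 1, had the smallest p (0.0246 before adjustment, edgeR adjusted p = 0.763), with 21.7 ± 23 CPM in WT and 5.71 ± 6.39 CPM in KO embryos (SD, n = 9 each). Its partner Chaf1a had 2001.0 ± 1241.0 and 1690.5 ± 1277.2 CPM. Among 17 translation start factors that work with eIF1A, 17 were tested and 0 called, against 0% of all transcripts, with a median of -0.10. An unadjusted edgeR p below 0.05 was reached by Eif3a alone, 1 of 17, against the same 5.8% of all transcripts. Eif3a, a subunit of the scaffold on which the initiation complex assembles, had 3796.8 ± 1035.6 CPM in WT and 2661.5 ± 431.1 CPM in KO embryos (SD, n = 9 each), for a log2 fold change of -0.51 ± 0.17 (SE, edgeR adjusted p = 0.438). Eif1ax, the X-linked gene for eIF1A, had 60.5 ± 38.3 CPM in WT and 84.9 ± 31.2 CPM in KO embryos (SD, n = 9 each), for a log2 fold change of 0.48 ± 0.4 (SE, edgeR adjusted p = 0.966).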

How the data were processed

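RNA of 18 single 2-cell embryos was amplified with the WT-Ovation One-Direct kit and sequenced. The authors mapped the reads to mm9 with RUM, allowing up to 1 mismatch and dropping reads with more than 1 location, and deposited raw counts per RefSeq transcript, which are not normalized. Per the labels, DESeq 1.10.0 was used downstream. Amplification from so little RNA can lose rare messages and widen the spread between embryos, and the removal of reads with several locations lowers the counts of near-identical gene copies.

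Groups were taken from the genotype of the father in the labels. Gene symbols were matched for 97.4% of the transcripts. Counts were tested with edgeR 4.0.16 (R 4.3.3; TMM factors, quasi-likelihood F test, Benjamini-Hochberg over all transcripts tested, threshold 0.1), on transcripts that reached 10 counts in 3 or more embryos, or in 1 or more for the fits of single KO embryos. Standard errors were obtained from the log2 fold change and the square root of F. Levels are CPM of the file total, and correlations use log2(CPM + 1) with scipy 1.17.1. The upper limit at 0 counts is that of 3 counts. Alternatives used DESeq2 1.42.0, limma 3.58.1, other filters and scalings, and each father left out. The tests were tested on simulated data. The 9 genes and the lists were chosen with earlier results of these data known. Named genes were the 9 members, the 5 transcripts with the highest rho to Zscan4d, and up to 4 genes a list by level and by p. The markers Amhr2, Fshr, Foxl2, Inha, Prm1, Tnp1, Sox17, Nanog and Gata4 and the genes Zscan4a and Eif1ax were named after their values were seen. Embryo numbers do not pair WT with KO samples. Exon windows were counted in the mm9 genome on both strands by exact match.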

Additional observations from a re-analysis of the deposited data

Results flagged for a closer look

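Among the 18 sets of 9 values (9 genes in WT and in KO embryos), 3 held an embryo whose gap to its nearest neighbour exceeded Dixon's 95% critical share of the whole range. Chance exceeds that share in about 1 of 20 sets of normally distributed values. The values here were CPM without log transformation, which cannot fall below 0, so the share to expect is not known. All 3 flagged values were the highest of their set. Zscan4c reached 14.8 CPM in WT embryo 1-3, where the next embryo had 2.9 CPM (gap 0.804 of the range). Zscan4d reached 30.4 CPM in WT embryo 3-2, where the next embryo had 9.68 CPM (gap 0.682). Tcstv3 reached 102.4 CPM in KO embryo 7-1, where the next embryo had 55 CPM (gap 0.506).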

How the results depend on the processing

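No member was called between KO and WT embryos under any of the settings run, and the same held for single KO embryos and for fathers under theirs. Over all transcripts the count of calls was 0 in edgeR, 38 with DESeq2's Wald test (0 of them members), and 0 to 5 with 1 father left out, where the 5 arose without father 6, and the cause was not tested. A replicate block on embryo numbers gave 0 called transcripts. Same-numbered embryos of the 2 groups did not deviate together (median correlation 0.00248, other numbers -0.00166), so the numbers do not pair them. The block changed no other call. DESeq2 gave no adjusted p for Zscan4f. Log2 fold changes of 5 members changed sign, none past the threshold. With 1 father left out they ranged from -1.47 to 0.62 (Zscan4c), -0.83 to 1.08 (Zscan4d), -0.85 to 0.33 (Zfp352), -0.91 to 0.58 (Eif1a) and -0.18 to 0.32 (Dppa2). With limma and father as a random effect, Zscan4d became 0.55 and Eif1a 0.15. Without father 1 Zscan4c became 0.62, and without father 2 Dppa2 became -0.02. Without father 3 Zscan4d became 1.08, Zfp352 0.02 and Eif1a 0.58. Without father 8 Zscan4c became 0.12, Zscan4d 0.06, Zfp352 0.33, Eif1a 0.16 and Dppa2 -0.18. Leaving out embryo 2-3, the shallowest library, which was chosen after seeing the data, reversed none. Zscan4f, Tcstv1, Tcstv3 and Dppa4 kept their direction in every setting, from 0.58 to 2.39, 0.13 to 0.94, 0.15 to 1.14 and -0.76 to -0.25. The filter of 10 counts in 9 embryos left Zscan4c and Zscan4f untested. Correlations with Zscan4d changed sign in WT embryos for Zscan4c (-0.10) and Zscan4f (-0.04), and in KO embryos for Tcstv1 (-0.09) and Dppa4 (0.61). Tcstv1 with Tcstv3 passed in all 6 alternatives run, which were added after seeing the data (r from 0.87 to 0.91). Tcstv3 with Zfp352 passed in 5 of them and gave 0.75 in KO embryos alone. Depth limits the Zscan4 genes most, since 1 count was worth up to 0.351 CPM and Zscan4f had 34 counts in all WT embryos.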
